A study of Mus musculus with 32 samples.

Results

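The cytosolic ribosomal protein genes are the genes of the protein subunits of the cell's main ribosome. They were taken by gene symbol, as the rows named Rpl or Rps followed by a number (with at most 1 letter a, x, y or l and 1 further digit), together with Rplp0, Rplp1, Rplp2, Rpsa and Rpl36al, and without the S6 kinases and without rows marked -ps, which are annotated pseudogenes. The rule found 87 of the 26331 named genes in the count files, 54 of the large (60S) and 33 of the small (40S) subunit. RefSeq lists 85 of them as protein coding. The other 2 symbols, Rps4l and Rpl6l, are pseudogenes there and were kept because the rule is by symbol.

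Each ribosome carries a single copy of nearly every one of these proteins, so the genes are transcribed in nearly every cell, and most ribosomal protein mRNAs begin with a pyrimidine tract (the TOP motif) through which mTOR and LARP1 control their translation. In the embryonic cortex, dividing radial glia, which make ribosomes for growth, give way to neurons that no longer divide. A few members have close relatives: Rpl3l, Rpl10l and Rpl39l are known as muscle or testis forms, and Rps27l, Rpl22l1 and Rpl7l1 are paralogs transcribed beside Rps27, Rpl22 and Rpl7.

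RNA sequencing of dissected mouse forebrain was used to ask what loss and gain of Kat6b, a histone lysine acetyltransferase, does to transcript levels at 2 ages. On the C57BL/6 background there were 5 libraries of E15.5 cortex labelled Kat6b-/- (KO) and 5 of wild-type (WT) E15.5 cortex, and 3 libraries each of KO and WT E12.5 dorsal telencephalon. On a mixed FVBxBALB/c background there were 4 libraries each of Tg(Kat6b) and WT tissue at E15.5 and at E12.5, where Tg(Kat6b) mice carry extra Kat6b. The transgene's promoter, and the exons removed in the knockout, were not given in the sources used here. The labels number the C57BL/6 embryos and their litters, and give no litter or embryo for FVBxBALB/c, so p-values there measure the spread between the libraries. All C57BL/6 libraries belong to 1 sequencing batch and all FVBxBALB/c libraries to another, so the backgrounds were fitted separately, and any difference between backgrounds cannot be told apart from one between batches.

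Total counts ran between 10424813 and 49699656 per library, and 89473 to 567166 of them fell on ribosomal protein genes. Ribosomal RNA rows took 19.1% of the counts in KO-labelled E15.5 replicate 3 and 0.0428% upward elsewhere (median of the 32 libraries 0.151%). Kat6b itself had 465 to 585 CPM (counts scaled to the size of the library) in Tg(Kat6b) tissue and 158 to 195 CPM in WT tissue at E12.5, and 590 to 769 CPM in Tg(Kat6b) and 153 to 225 CPM in WT at E15.5 (3.09-fold and 3.62-fold; edgeR adjusted p = 1.03e-05 and 1.64e-06). In the KO-labelled libraries its count was not called lower: it was 153 to 190 CPM against 151 to 191 CPM in WT at E15.5, and 121 to 190 CPM against 152 to 193 CPM in WT at E12.5. A count over the whole gene does not check a deletion of some exons, so these libraries are called KO-labelled below. All 11 neuron markers examined were higher at E15.5 than at E12.5 in each genotype and background, and 6 of 8 radial glia markers were lower and 2 higher (adjusted p below 0.05).

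The starts of members called with age in more than 1 set are shown first, with those of the partners Rps27 and Rpl22, since a pyrimidine tract at the start is the feature the family is known for. RefSeq's promoter table for mouse (GRCm38.p6) held 65 of the 87 members, including 8 of the 10 called in more than 1 set. Only the first entry of each gene was read, and Rps27l and Rpl22 have 2 entries each. A tract was counted from a C within 5 bases of the annotated start, where C or T then ran for at least 5 bases on the sense strand. Bases before that C were not looked at, so a tract can be part of a longer run of C and T. It was present in 29 of the 65 (44.6%), against 4960 of 26960 other genes in the table (18.4%). The windows run 5′ to 3′ over 30 bases, 15 before the start and 15 from it, and capitals mark the tract. Rpl15 is read from chr14:18270972-18271001 on the minus strand, Rps27l from chr9:66946071-66946100 on the plus strand and Rps27 from chr3:90213634-90213663 on the minus strand. Rpl22l1 is read from chr3:28805493-28805522 on the plus strand, Rpl22 from chr4:152325711-152325740 on the plus strand and Rpl7l1 from chr17:46782642-46782671 on the minus strand. Rpl12 is read from chr2:32961697-32961726 on the plus strand and Rps2 from chr17:24720048-24720077 on the plus strand. Rpl14 is read from chr9:120571502-120571531 on the plus strand and Rpl9 from chr5:65391417-65391446 on the minus strand.
Rpl15: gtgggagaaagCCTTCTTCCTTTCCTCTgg
Rps27l: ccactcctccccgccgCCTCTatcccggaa
Rps27: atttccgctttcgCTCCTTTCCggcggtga
Rpl22l1: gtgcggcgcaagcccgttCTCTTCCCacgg
Rpl22: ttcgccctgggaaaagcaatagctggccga
Rpl7l1: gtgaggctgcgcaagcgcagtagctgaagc
Rpl12: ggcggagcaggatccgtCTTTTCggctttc
Rps2: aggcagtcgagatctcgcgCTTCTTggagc
Rpl14: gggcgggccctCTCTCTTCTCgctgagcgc
Rpl9: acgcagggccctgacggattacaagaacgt
Of these, the counted tract was longest in Rpl15 (17 bases), was 10 bases in Rpl14, 9 in Rps27, 8 in Rpl22l1, 6 in Rpl12 and Rps2 and 5 in Rps27l. In Rpl14 the bases ccct come directly before the capitals, so its run of C and T is longer and begins further upstream. No tract was found in these windows of Rpl22, Rpl7l1 and Rpl9.

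Rps27l and Rps27 can be told apart by reads of 66 bases, the length sequenced, because their coding sequences differ along their whole length. Each has 84 codons (252 bases without the stop codon), 60 bases differ (76.2% identical), and the longest run of identical bases is 11. The sequences are those of GENCODE M21 on GRCm38, from chromosome 9 for Rps27l and chromosome 3 for Rps27, with capitals at the bases that differ between them.
Rps27l: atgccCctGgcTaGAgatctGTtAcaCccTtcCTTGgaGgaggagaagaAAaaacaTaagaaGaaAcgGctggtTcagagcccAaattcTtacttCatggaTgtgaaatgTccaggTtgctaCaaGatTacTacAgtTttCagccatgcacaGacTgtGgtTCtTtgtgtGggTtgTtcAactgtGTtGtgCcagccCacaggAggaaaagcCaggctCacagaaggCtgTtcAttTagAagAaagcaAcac
Rps27: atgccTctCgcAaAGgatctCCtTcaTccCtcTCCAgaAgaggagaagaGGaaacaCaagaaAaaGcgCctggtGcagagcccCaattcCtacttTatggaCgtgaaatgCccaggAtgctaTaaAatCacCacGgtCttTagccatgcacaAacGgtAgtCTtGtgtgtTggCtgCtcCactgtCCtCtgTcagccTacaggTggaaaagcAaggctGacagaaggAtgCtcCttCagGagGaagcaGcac
Other copies are a different matter for Rps27: 98.6% of the 66-base windows of its mRNA also occur in transcripts annotated at other places in the genome, against 15.9% for Rps27l. How the authors' counting treated reads with several positions is not given in the sources used here.

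Ribosomal protein genes made up about 1% of the counts in every group, and no group stood clear of its partner. Their share per library was 0.735% at the lowest, 1.02% at the median and 1.17% at the highest in KO-labelled E15.5 cortex, against 0.835%, 1.02% and 1.10% in WT. At E12.5 it was 1.07%, 1.21% and 1.24% in KO-labelled tissue, against 0.975%, 0.998% and 1.18% in WT. Those E12.5 groups overlap only through 1 WT library. The shares were 0.826%, 0.847% and 0.897% in Tg(Kat6b) E15.5 cortex, against 0.800%, 0.858% and 1.01% in WT. They were 0.730%, 1.03% and 1.23% in Tg(Kat6b) E12.5 tissue, against 0.699%, 0.772% and 1.14% in WT. The lowest KO-labelled E15.5 library is the one rich in ribosomal RNA, and without the ribosomal RNA rows that group ran between 0.909% and 1.17%. In bulk tissue, fewer cells of a type and less RNA per cell cannot be told apart.

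**Figure D1:**
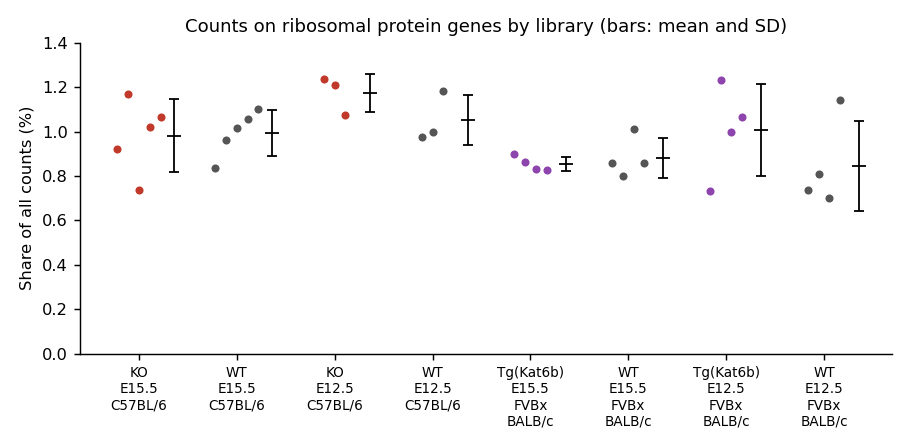
Share of all counts on the 87 ribosomal protein genes in each library (points), with the group mean and SD (bars), for 8 groups. Every library lies between 0.699% and 1.24%, and the points of each KO or Tg(Kat6b) group overlap those of its WT group.

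The level per length is given in RPKM (CPM divided by the length listed for the gene in kilobases, mean of the 8 groups). It differed 617-fold between the highest and the lowest member kept in the fit of all libraries, around a median of 64.2 RPKM. The listed length can exceed that of the transcript used for the windows, as for Rpl31 (1254 against 487 bases) and Rps15a (5136 against 640). Rankings by RPKM and comparisons between members depend on that length. Rpl8, next to the peptidyl transferase centre, was highest at 741 RPKM, followed by Rps15 of the small subunit head at 716 RPKM and Rpl4, which lines the exit tunnel, at 658 RPKM. By this measure the lowest were Rpl39, another exit tunnel protein, at 1.202 RPKM, Rps13 at 7.85 RPKM and Rpl31 at 9.12 RPKM. The stalk that recruits translation factors was not evenly represented: Rplp1 had 578 RPKM, its anchor Rplp0 366 RPKM and Rplp2 144 RPKM. Rpsa, also known as the laminin receptor precursor, had 122 RPKM, and Rpl5 and Rpl11, which bind 5S rRNA and restrain MDM2, had 10.04 and 22.9 RPKM. Rpl36al had 76.3 RPKM and Rpl36a 17.0 RPKM, and the pseudogene-annotated Rps4l had 30.4 RPKM beside 133 RPKM for Rps4x.

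The tissue-restricted relatives were near or at 0. Rpl10l had no count in any of the 32 libraries, Rpl3l 0 to 6 counts and Rpl39l 0 to 8 counts per library. These 3 were not kept by the filter on low counts in either background, and Rpl39 (1 to 29 counts) was not kept in FVBxBALB/c, so 84 members were tested in C57BL/6 and 83 in FVBxBALB/c.

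Low levels went with sequence shared with other loci. Over the 84 members kept in the fit of all libraries, the 16 with up to 25% of their 66-base windows in other transcripts had a median of 248 RPKM, the 24 with 25 to 50% had 61.9 RPKM, the 27 with 50 to 75% had 77.1 RPKM and the 17 with more had 19.7 RPKM. Spearman's rho between level and shared windows was -0.49 across the 84 genes, which share the same libraries and are not independent. Rpl8 shared 5.98% of its windows and had 741 RPKM, while Rps27 shared 98.6% and had 18.6 RPKM. Rpl39 is the exception, with 10.8% shared. Rows of annotated pseudogenes held counts as well: the single Rps6-ps4 row had 229 to 479 CPM per library, while Rps6, the S6 kinase substrate, had 21.1 to 45.1 CPM. The pseudogene rows of 11 members held more than 5% of the counts of gene and pseudogenes together, among them Rpl17 (83.6%), Rpl34 (61.8%), Rpl31 (48.3%) and Rps12 (42.1%). The members named for shared windows or pseudogene rows were chosen after their values were seen. Levels of members with many shared windows are therefore levels of the counted row, and the part that sharing plays in them was not tested.

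**Figure D2:**
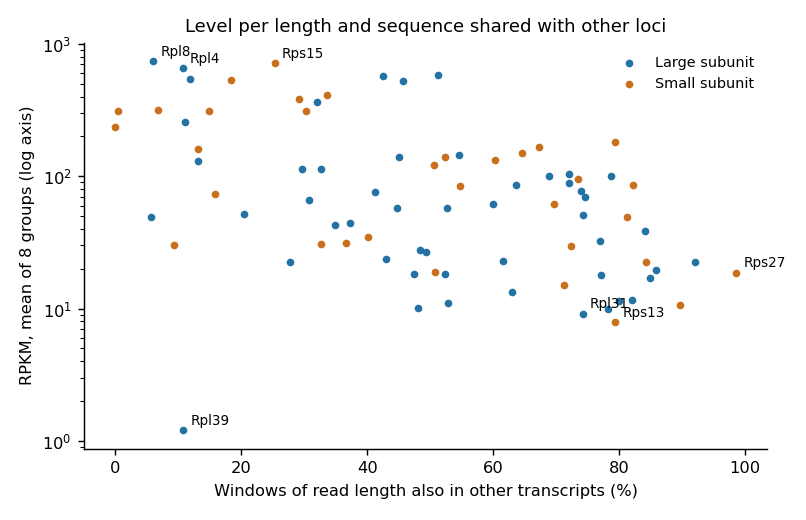
RPKM of the 84 kept members (log axis, mean of the 8 groups) against the share of their 66-base windows that also occur in other transcripts, by subunit. The highest members, Rpl8, Rps15 and Rpl4, lie at 25.3% shared or below, and Rps27 lies at 98.6%.

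Between E12.5 and E15.5 few ribosomal protein mRNAs were called changed, while many other genes were. In KO-labelled C57BL/6 tissue, 10 of 84 members were lower at E15.5 and 1 was higher at an adjusted p below 0.05, against 27% of all 16118 genes lower and 29.4% higher. In C57BL/6 WT tissue 5 of 84 were lower and 1 higher, against 28.2% and 28.6% of all genes. In Tg(Kat6b) tissue 11 of 83 were lower and none higher, against 22.5% and 23.8% of 15556 genes. In FVBxBALB/c WT tissue 4 of 83 were lower and 1 higher, against 25.1% and 25.1%. The median log2 change of the members was -0.11, 0.01, -0.20 and 0.07 in that order, against -0.01, -0.02, -0.03 and -0.03 over all genes. With library totals in place of TMM factors, 24 members were lower in KO-labelled tissue and 9 in FVBxBALB/c WT, and none was higher in C57BL/6 WT. For the absence of higher calls in Tg(Kat6b) tissue, 2 members were higher at an unadjusted p below 0.05 in edgeR, against 4147 of 15556 genes. DESeq2 called 1 member higher there.

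**Figure D3:**
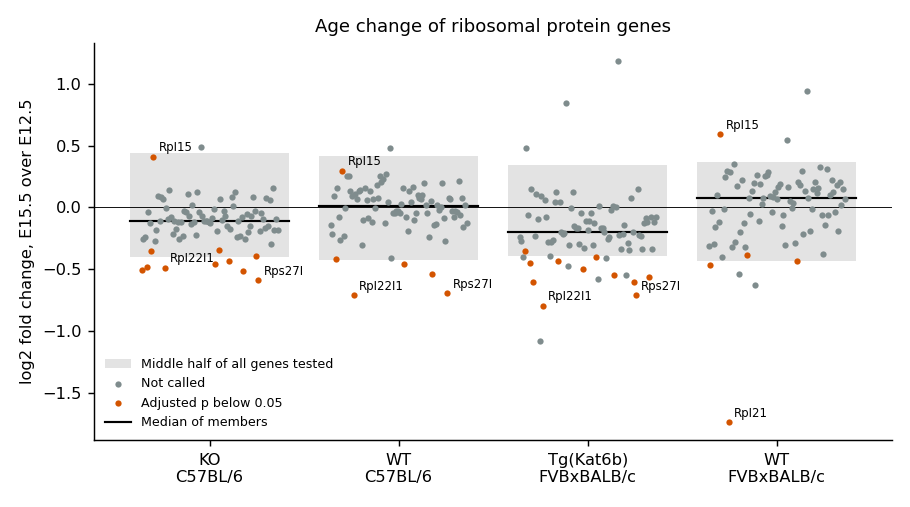
log2 fold change, E15.5 over E12.5, of each tested member (points) in the 4 genotype and background sets. Orange points had an adjusted p below 0.05, black lines mark the members' medians and grey boxes the interquartile range of all genes tested; most members lie inside the grey boxes, with Rps27l and Rpl22l1 below them in KO, C57BL/6 WT and Tg(Kat6b) tissue and Rpl15 above the box in FVBxBALB/c WT.

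The counts of called members depended on single libraries in the smaller groups. In Tg(Kat6b) tissue 21 members were lower without E12.5 replicate 1, 5 without E12.5 replicate 2, 6 without E12.5 replicate 4, 6 without E15.5 replicate 2 and 7 without E15.5 replicate 3, and 1 to 2 were higher without E12.5 replicate 1 or 2 or E15.5 replicate 3 or 4. In FVBxBALB/c WT tissue 12 members were higher without E12.5 replicate 4, and 2 and 3 without E12.5 replicate 3 and E15.5 replicate 4. There, 1 member was lower without E15.5 replicate 1 or 4 and 2 without E15.5 replicate 3. In C57BL/6 WT tissue 8 were lower without E12.5 replicate 1, and 2, 3 and 4 were higher without E12.5 replicates 3 and 4 and E15.5 replicate 1. Counted without members of which over 25% of the windows are shared, a choice made after the data were seen, 2, 2, 1 and 0 members were lower and none was higher.

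Some members were called with age in more than 1 set. Of the 19 members called in any of the 4 sets, 9 were called once and 10 more than once, and each of these kept 1 direction. Of all genes, 56.4% were called in KO-labelled, 56.8% in C57BL/6 WT, 46.3% in Tg(Kat6b) and 50.1% in FVBxBALB/c WT tissue. How many of all genes recur between sets is not given here. Rps27l, Rpl22l1 and Rpl12 were lower in 3 sets, KO-labelled, C57BL/6 WT and Tg(Kat6b), and Rpl15 was higher in 3, KO-labelled and both WT sets. No direct test set FVBxBALB/c WT apart. Of the difference in age change between the WT sets of both backgrounds, 0 of 84 members were called in edgeR, against 0.0305% of 16399 genes. At an unadjusted p below 0.05 in edgeR there were 1086 of those genes and 6 members. The smallest p-values there belonged to Rpl15 (log2 difference 0.31, SE 0.117, edgeR adjusted p = 0.648), Rpl21 (-1.86, SE 0.697, edgeR adjusted p = 0.648) and Rps27l (0.58, SE 0.257, edgeR adjusted p = 0.712).

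Rps27l, a paralog of Rps27 that p53 is known to induce, was lower at E15.5 in 3 of the 4 sets. In KO-labelled tissue it had 25.2, 35.2, 29.6, 30.9 and 32.2 CPM at E15.5, against 52.1, 45.2 and 44.4 CPM at E12.5 (log2 fold change -0.59, SE 0.106, edgeR adjusted p = 1.67e-04). The C57BL/6 WT libraries had 24.4, 30.3, 25.9, 29.8 and 31.7 CPM at E15.5, against 44.1, 46.3 and 50.2 CPM at E12.5 (log2 fold change -0.70, SE 0.107, edgeR adjusted p = 3.40e-05). In both, every E15.5 library lay below every E12.5 library. The Tg(Kat6b) libraries had 24.4, 24.6, 24.8 and 18.6 CPM at E15.5, against 23.9, 43.3, 39.3 and 45.5 CPM at E12.5 (log2 fold change -0.71, SE 0.222, edgeR adjusted p = 0.0152). There 1 of the E12.5 libraries lay among those of E15.5, and without E12.5 replicate 4 the edgeR adjusted p was 0.0509. The FVBxBALB/c WT libraries had 30.0, 28.6, 25.2 and 25.1 CPM at E15.5, against 30.1, 30.4, 17.6 and 41.8 CPM at E12.5 (log2 fold change -0.14, SE 0.221, edgeR adjusted p = 0.624). The E12.5 libraries of this set spread over both sides of the E15.5 ones, and without E12.5 replicate 4 the log2 fold change was 0.07. Rps27 itself was not called in any set. It averaged 13.6 ± 2.40 CPM at E15.5 and 14.3 ± 0.257 CPM at E12.5 in KO-labelled tissue, and 12.6 ± 1.67 and 13.6 ± 3.94 CPM in C57BL/6 WT (SD, n = 5 and 3). Its log2 fold changes were -0.03, -0.08, -0.20 and -0.06 in KO-labelled, C57BL/6 WT, Tg(Kat6b) and FVBxBALB/c WT tissue, with SEs of 0.174 to 0.189. Per length, Rps27l was the more abundant row of the pair, at 73.1 RPKM against 18.6 RPKM for Rps27. As 98.6% of the Rps27 windows occur in other transcripts, against 15.9% for Rps27l, the Rps27 values are those of the counted row. The part that sharing plays in its level and in its lack of calls was not tested.

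Rpl22l1 moved in the same sets. Its relative Rpl22 is known to repress it in mouse cells. Rpl22l1 had, in KO-labelled tissue, 18.8, 26.9, 20.3, 26.5 and 23.7 CPM at E15.5, against 36.4, 34.3 and 29.7 CPM at E12.5 (log2 fold change -0.49, SE 0.149, edgeR adjusted p = 0.0103). Rpl22l1 had, in C57BL/6 WT, 20.2, 21.6, 15.6, 21.7 and 26.8 CPM at E15.5, against 39.0, 30.9 and 35.8 CPM at E12.5 (log2 fold change -0.71, SE 0.149, edgeR adjusted p = 6.46e-04). The ages did not overlap in either. Rpl22l1 in Tg(Kat6b) tissue had 20.8, 18.7, 19.9 and 20.1 CPM at E15.5, against 22.2, 45.0, 33.5 and 37.5 CPM at E12.5 (log2 fold change -0.80, SE 0.204, edgeR adjusted p = 0.00441). The E15.5 libraries lay close together and below all of E12.5. Rpl22l1 in FVBxBALB/c WT had 23.2, 24.8, 20.6 and 22.5 CPM at E15.5, against 23.3, 29.3, 20.6 and 40.6 CPM at E12.5 (log2 fold change -0.32, SE 0.203, edgeR adjusted p = 0.196). Here the E12.5 libraries reached below the highest of E15.5. Rpl22 averaged 259 ± 18.5 CPM at E15.5 and 254 ± 23.9 CPM at E12.5 in KO-labelled tissue, and 262 ± 16.2 and 248 ± 14.4 CPM in C57BL/6 WT (SD, n = 5 and 3). It was not called in any set, with log2 fold changes of 0.07, 0.09, 0.09 and 0.28, all above 0 (SEs 0.0788 to 0.153).

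Rpl7l1, the paralog of the large-subunit protein Rpl7, was lower at E15.5 on the C57BL/6 background. In KO-labelled tissue Rpl7l1 had 95.8, 110, 92.7, 102 and 109 CPM at E15.5, against 160, 143 and 129 CPM at E12.5 (log2 fold change -0.46, SE 0.0873, edgeR adjusted p = 2.65e-04). Rpl7l1 in C57BL/6 WT had 99.6, 104, 110, 109 and 115 CPM at E15.5, against 164, 131 and 154 CPM at E12.5 (log2 fold change -0.46, SE 0.0873, edgeR adjusted p = 2.85e-04). The ages did not overlap in either genotype. In Tg(Kat6b) tissue the change was -0.31 (SE 0.127, edgeR adjusted p = 0.0585), and it passed the threshold under other scalings (edgeR adjusted p = 0.0490 with RLE factors). In FVBxBALB/c WT it was -0.15 (SE 0.127, edgeR adjusted p = 0.347). Rpl7 was not called in any set and its log2 fold changes were -0.09, 0.03, -0.11 and 0.17. Only 5.62% of the Rpl7l1 windows and 15.9% of those of Rps27l occur elsewhere, against 52.6% for Rpl22l1.

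**Figure D4:**
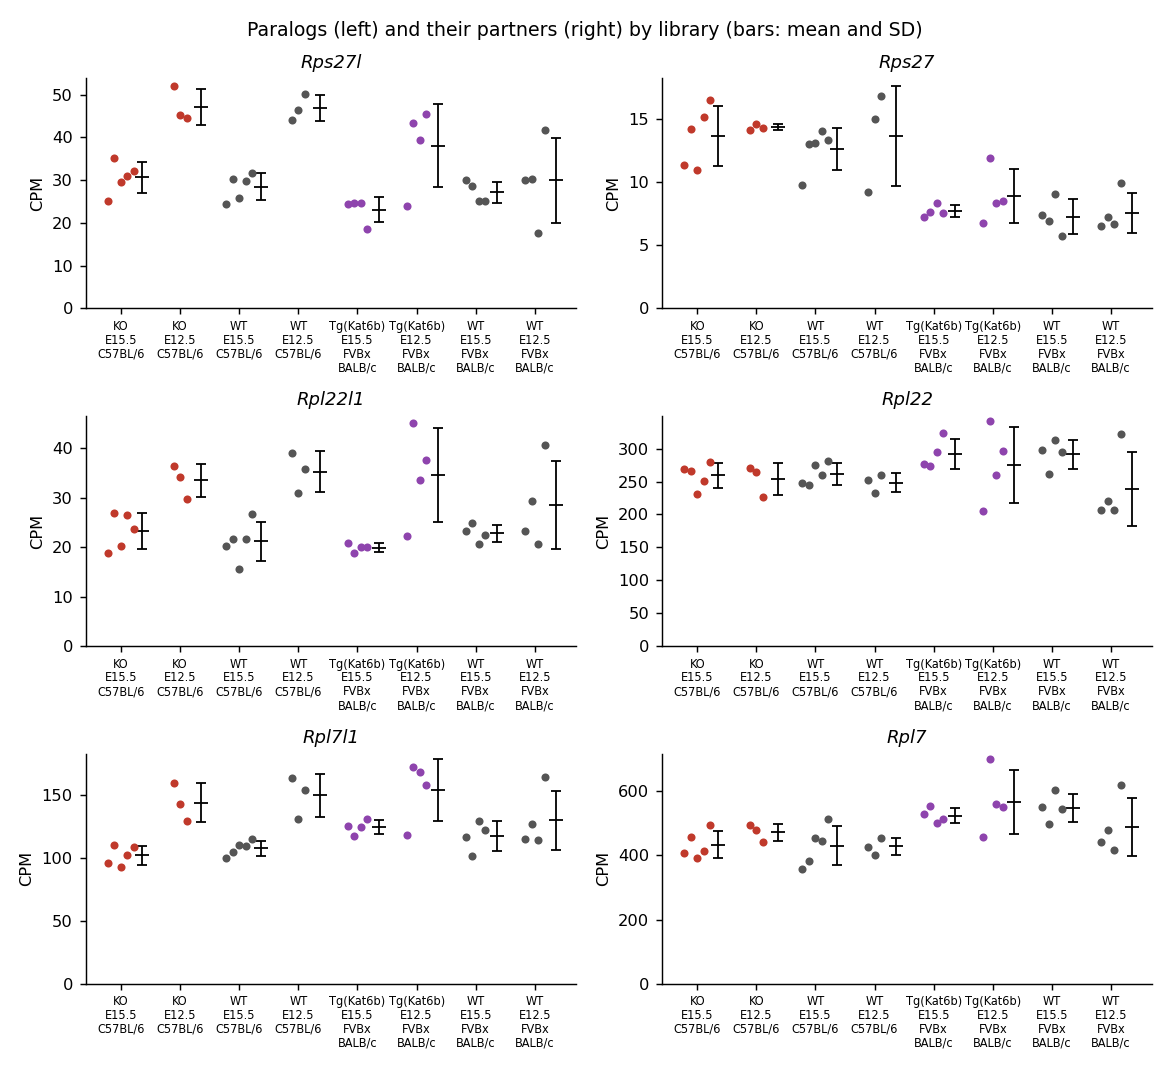
CPM in each library (points) with the group mean and SD (bars) for the paralogs Rps27l, Rpl22l1 and Rpl7l1 (left) and their partners Rps27, Rpl22 and Rpl7 (right), E15.5 left of E12.5 in each pair of groups. In both C57BL/6 pairs every E15.5 point of each paralog lies below every E12.5 point, while the partners' points overlap.

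Rpl15, a large-subunit protein whose loss causes Diamond-Blackfan anemia in humans, was the only member called higher at E15.5. Its level was, in KO-labelled tissue, 126, 126, 136, 141 and 146 CPM at E15.5, against 102, 107 and 104 CPM at E12.5 (log2 fold change 0.41, SE 0.0730, edgeR adjusted p = 1.45e-04). Rpl15 in C57BL/6 WT had 124, 127, 135, 123 and 135 CPM at E15.5, against 119, 100 and 99.8 CPM at E12.5 (log2 fold change 0.30, SE 0.0728, edgeR adjusted p = 0.00220). Rpl15 in FVBxBALB/c WT had 159, 158, 173 and 177 CPM at E15.5, against 110, 114, 95.8 and 121 CPM at E12.5 (log2 fold change 0.59, SE 0.0940, edgeR adjusted p = 6.73e-05). The ages did not overlap in these 3 sets. In Tg(Kat6b) tissue they did: Rpl15 had 141, 146, 151 and 155 CPM at E15.5, against 129, 159, 134 and 115 CPM at E12.5. With library totals in place of TMM factors the C57BL/6 WT call was lost (edgeR adjusted p = 0.0621). Of the Rpl15 windows 74.6% occur in other transcripts.

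The remaining called members each belonged to 1 or 2 sets, apart from Rpl12. Rpl12, at the base of the stalk and picked after its values were seen, had 14.1, 17.8, 15.4, 18.2 and 17.7 CPM at E15.5, against 18.2, 24.9 and 24.8 CPM at E12.5 in C57BL/6 WT. Rps2, a small-subunit protein methylated by PRMT3, had 138, 171, 146, 151 and 155 CPM at E15.5, against 268, 216 and 187 CPM at E12.5 in KO-labelled tissue (log2 fold change -0.51, SE 0.130, edgeR adjusted p = 0.00285). In C57BL/6 WT it had 141, 131, 134, 152 and 190 CPM at E15.5, against 226, 189 and 246 CPM at E12.5 (log2 fold change -0.54, SE 0.130, edgeR adjusted p = 0.00204). The highest WT E15.5 library reached past the lowest of E12.5, while the KO-labelled ages stayed apart. Rpl10, which joins the large subunit last, had 17.6, 15.1, 14.5, 15.54 and 18.5 CPM at E15.5, against 22.0, 23.5 and 25.6 CPM at E12.5 in KO-labelled tissue (log2 fold change -0.50, SE 0.119, edgeR adjusted p = 0.00166), again without overlap. In Tg(Kat6b) tissue, Rps27a, made as a fusion with ubiquitin, had 10.3, 7.96, 8.50 and 8.89 CPM at E15.5, against 10.7, 16.02, 12.3 and 15.46 CPM at E12.5 (log2 fold change -0.61, SE 0.171, edgeR adjusted p = 0.00784). Rps6 had 21.7, 28.1, 30.0 and 27.2 CPM, against 40.5, 43.0, 36.4 and 38.7 CPM (log2 fold change -0.56, SE 0.172, edgeR adjusted p = 0.0133). Rpl17, at the exit tunnel, had 6.62, 5.45, 3.64 and 5.32 CPM, against 6.96, 9.43, 7.22 and 8.41 CPM (log2 fold change -0.60, SE 0.176, edgeR adjusted p = 0.0102). None of these 3 overlapped between ages. Pseudogene rows held 90.6% of the counts of gene and pseudogenes together for Rps6 and 83.6% for Rpl17. The age change of those pseudogene rows is not given here, so these are changes of the counted rows. In FVBxBALB/c WT, Rpl10a of the L1 stalk averaged 18.5 ± 2.88 CPM at E15.5 and 25.7 ± 3.64 CPM at E12.5 (SD, n = 4 each; log2 fold change -0.47, SE 0.132, edgeR adjusted p = 0.00717). Rpl3, near the peptidyl transferase centre, averaged 17.2 ± 1.97 and 22.5 ± 3.48 CPM (log2 fold change -0.39, SE 0.132, edgeR adjusted p = 0.0219), and Rps13 of the small subunit 3.28 ± 0.744 and 4.49 ± 0.430 CPM (log2 fold change -0.44, SE 0.171, edgeR adjusted p = 0.0427). Leaving out 1 library at a time ended the calls of Rpl3 in 3 of 8 cases, of Rps13 in 5 and of Rpl21 in 6, the lowest and highest edgeR adjusted p among those losses being 0.0570 and 0.180.

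Many factors that build ribosomes were lower at E15.5. Of 34 ribosome biogenesis factors, 19 were lower at E15.5 in KO-labelled tissue, 21 in C57BL/6 WT, 12 in Tg(Kat6b) and 17 in FVBxBALB/c WT, against 27%, 28.2%, 22.5% and 25.1% of all genes, and 0, 0, 2 and 0 were higher. Gnl3, a nucleolar GTPase of stem cells, averaged 43.5 ± 2.60 CPM at E15.5 and 77.1 ± 7.59 CPM at E12.5 in KO-labelled tissue (log2 fold change -0.79, edgeR adjusted p = 1.17e-06). Dkc1, the pseudouridine synthase of rRNA, averaged 53.2 ± 3.96 and 107 ± 19.5 CPM in C57BL/6 WT (-0.99, edgeR adjusted p = 8.24e-07). Polr1a, the largest subunit of RNA polymerase I, averaged 46.5 ± 3.78 and 79.8 ± 11.9 CPM in FVBxBALB/c WT (-0.78, edgeR adjusted p = 6.85e-06). No test set this list against the ribosomal protein genes.

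The counts of the other lists stand beside 27%, 28.2%, 22.5% and 25.1% of all genes lower and 29.4%, 28.6%, 23.8% and 25.1% higher in KO-labelled, C57BL/6 WT, Tg(Kat6b) and FVBxBALB/c WT tissue. Among 13 translation factors and other TOP mRNAs, 3 were lower and 3 higher in KO-labelled tissue, 3 and 3 in C57BL/6 WT, 1 and 1 in Tg(Kat6b) and 2 and 3 in FVBxBALB/c WT. The elongation factor Eef2 was higher in all 4, with 2770 ± 175 CPM at E15.5 and 2154 ± 82.2 CPM at E12.5 in C57BL/6 WT (0.38, edgeR adjusted p = 4.18e-04). The poly(A)-binding protein Pabpc1 had 442 ± 21.7 and 664 ± 85.0 CPM there (-0.57, edgeR adjusted p = 1.45e-04). Of 11 MYC and mTOR regulators, 2 were lower and 5 higher, 3 and 5, 1 and 4, and 2 and 4 in the same order, and Myc was among those higher in each set (28.6 ± 2.10 CPM at E15.5 and 16.2 ± 1.63 CPM at E12.5 in KO-labelled tissue). Of 11 genes of the p53 list, 3, 3, 3 and 2 were lower and 2, 2, 1 and 2 higher. Of 77 mitochondrial ribosomal protein genes, 19, 19, 11 and 1 were lower and 2, 4, 0 and 4 higher.

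The ages also differed in other cell types. Of 8 meningeal and mesenchymal markers, 5, 6, 6 and 7 were lower at E15.5 in the same order, and their summed level was 33.2 to 194 CPM in KO-labelled and 33.4 to 114 CPM in WT E15.5 cortex of C57BL/6, against 302 to 2023 CPM and 396 to 1265 CPM at E12.5. In FVBxBALB/c it was 35.6 to 42.3 CPM in Tg(Kat6b) and 36.5 to 45.0 CPM in WT at E15.5, against 217 to 1158 CPM and 315 to 1833 CPM at E12.5. Of 8 erythroid markers 7, 7, 4 and 5 were lower and 1, 1, 1 and 0 higher. Their summed level was 188 to 222 CPM in KO-labelled, 168 to 261 CPM in C57BL/6 WT, 182 to 420 CPM in Tg(Kat6b) and 249 to 486 CPM in FVBxBALB/c WT cortex at E15.5. At E12.5 it was 1339 to 3703 CPM, 2078 to 3829 CPM, 1447 to 4454 CPM and 2379 to 9673 CPM in the same order. No marker of these lists was at 0 in every library of a group. Their part in the age changes of the ribosomal protein genes was not tested.

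No ribosomal protein gene passed the threshold between KO-labelled and WT tissue at either age. At E15.5, 0 of 84 members were called in edgeR or in DESeq2, and 0% of all genes were called in edgeR. No member had an unadjusted p below 0.05 in either tool, against 456 of all 16118 genes in edgeR. At E12.5, 0 of 84 were called in both tools, and 0.0062% of all genes (1 gene) were called. Of the members, 2 had an unadjusted p below 0.05 in each tool, against 842 of all 16118 genes in edgeR. Both members lay above 0: Rpl10 had 22.0, 23.5 and 25.6 CPM in KO-labelled and 17.2, 23.6 and 16.1 CPM in WT tissue at E12.5 (log2 fold change 0.31, SE 0.133, edgeR adjusted p = 0.881). Rps12 had 7.72, 6.47 and 7.66 CPM in KO-labelled and 4.88, 6.00 and 6.59 CPM in WT tissue (0.31, SE 0.144, edgeR adjusted p = 0.881). In each, a WT library reached into the KO-labelled values. Rpl3, with 104, 109 and 95.1 CPM in KO-labelled and 66.9, 88.0 and 91.4 CPM in WT tissue, did not overlap but was not called (0.31, SE 0.165, edgeR adjusted p = 0.881). These tests hold no term for litter. With litter as a block in edgeR, 0 members were called at either age. At an unadjusted p below 0.05 there were then 8 members at E12.5 and 1 at E15.5. The matching share of all genes is not given here.

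At E15.5 the smallest p-values belonged to Rps12 (log2 fold change -0.22, SE 0.114), Rps4l (0.21, SE 0.123) and Rpl12 (0.18, SE 0.111), each with an edgeR adjusted p of 1. Over the list, 75 of 84 members lay above 0 at E12.5, with a median of 0.15, and 59 of 84 at E15.5, with a median of 0.03, against medians of -0.01 and 0.01 over all genes. The members share the same libraries and are not independent, so these are not counts of replicates. The E15.5 median was -0.02 with library totals in place of TMM factors, -0.02 without WT replicate 1 and also below 0 without KO-labelled replicate 2. At E12.5 the members' median deviation from the age's mean was 0.13, 0.11 and 0.01 (log2) in KO-labelled replicates 1, 3 and 4, against -0.24, -0.08 and 0.08 in the WT ones. Of these, 2 KO-labelled libraries lay above all WT libraries and 1 among them. Mesenchymal markers lay above 0 in 8 of 8 and erythroid markers in 0 of 8 in that comparison, and their part in it was not tested. For the difference of the KO effect between ages, 0 of 84 were called in edgeR and in DESeq2, and 0% of all genes were called. At an unadjusted p below 0.05 there were 438 of all 16118 genes in edgeR, and 2 members in each tool. The smallest p there was that of Rps12 (log2 difference -0.53, SE 0.184, edgeR adjusted p = 1).

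Extra Kat6b likewise left no ribosomal protein gene past the threshold. At E15.5, 0 of 83 members were called in edgeR and in DESeq2, and 0.0129% of all genes (2 genes) were called in edgeR. Of the members, 1 had an unadjusted p below 0.05 in each tool, against 346 of all 15556 genes in edgeR. At E12.5, 0 of 83 were called in both tools, and again 0.0129% of all genes were called. Of the members, 6 (edgeR) and 12 (DESeq2) had an unadjusted p below 0.05, against 1039 of all 15556 genes in edgeR. The leading member at E12.5 was Rplp0, the stalk anchor, with 412, 490, 585 and 408 CPM in Tg(Kat6b) and 180, 201, 359 and 303 CPM in WT tissue (log2 fold change 0.86, SE 0.253, edgeR adjusted p = 0.724). Every Tg(Kat6b) library lay above every WT library. At E15.5 Rplp0 had 436, 226, 240 and 368 CPM in Tg(Kat6b) and 431, 349, 485 and 258 CPM in WT cortex, where the groups overlapped. Rpl15 (0.29, SE 0.0935) and Rps7, which binds MDM2 (0.41, SE 0.146), followed at E12.5 with the same edgeR adjusted p of 0.724.

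At E15.5 the leading member was Rpl21, with 5.81, 34.6, 5.50 and 34.1 CPM in Tg(Kat6b) and 5.58, 6.41, 6.02 and 6.85 CPM in WT cortex (log2 fold change 1.70, SE 0.647, edgeR adjusted p = 1). Only Tg(Kat6b) replicates 2 and 4 stood apart, and the others lay among the WT values. Over the list, 68 of 83 members lay above 0 at E12.5 (median 0.22) and 30 of 83 at E15.5 (median -0.03), against medians of -0.01 and 0.00 over all genes. Here too the members share the same libraries and are not independent. Among members with at most 25% of windows shared the E15.5 median was 0.02. The mitochondrial ribosomal protein genes were also above 0 in 71 of 77 at E12.5, with a median of 0.17, while mesenchymal markers lay above 0 in 0 of 8 and erythroid markers in 1 of 8. The members' median deviations at E12.5 were -0.27, 0.41, 0.07 and 0.20 in Tg(Kat6b) replicates 1 to 4, against -0.26, -0.12, -0.27 and 0.29 in the WT ones, so both groups hold high and low libraries. WT replicate 4 had the highest erythroid sum of all libraries (9673 CPM). The part of these cells in the members' levels was not tested. For the difference of the Tg(Kat6b) effect between ages, 4 (edgeR) and 6 (DESeq2) members had an unadjusted p below 0.05, against 628 of all 15556 genes in edgeR. In that difference 0 of 83 members were called in edgeR and in DESeq2, and 0% of all genes were called. Rpl15 (-0.45, SE 0.133), Rplp0 (-1.12, SE 0.358) and Rpl35 (-0.73, SE 0.280) led it, with an edgeR adjusted p of 1.00 each.

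The WT tissues of both backgrounds differed more than any genotypes did. At E15.5, 23 of 84 members were lower in FVBxBALB/c and 7 higher, against 11.3% and 13.9% of 16399 genes. At E12.5, 24 of 84 were lower and none higher, against 7.19% and 5.59%. For higher members at E12.5, 1 had an unadjusted p below 0.05 in edgeR, against 2024 of 16399 genes, and DESeq2 called no member. The members' medians were -0.19 at E15.5 and -0.27 at E12.5, against -0.01 and 0.01 over all genes. The ages shared 18 called members, all lower, which is 60% of those called at E15.5 and 75% of those at E12.5. At E12.5, 39 members were lower without FVBxBALB/c replicate 4, 14 without FVBxBALB/c replicate 3 and 13 without C57BL/6 replicate 4. At E15.5, 3 were higher without FVBxBALB/c replicate 3 and 4 without C57BL/6 replicate 1.

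Rps2 and Rpl29 were the members with the largest gap between backgrounds. Rps2 had 5.39, 5.26, 6.16 and 4.76 CPM in FVBxBALB/c and 141, 131, 134, 152 and 190 CPM in C57BL/6 WT cortex at E15.5 (log2 fold change -4.79, SE 0.135, edgeR adjusted p = 4.03e-21). At E12.5 it had 5.80, 6.75, 5.36 and 6.67 CPM and 226, 189 and 246 CPM (log2 fold change -5.16, SE 0.136, edgeR adjusted p = 5.82e-22). Over all 16 libraries of each background, both genotypes included, Rps2 ran 4.14 to 6.75 CPM in FVBxBALB/c and 131 to 268 CPM in C57BL/6, far apart. Rpl29, a surface protein of the large subunit that mice can live without, had 1.37, 1.98, 2.35 and 2.58 CPM in FVBxBALB/c and 103, 100, 120, 134 and 154 CPM in C57BL/6 WT cortex at E15.5 (log2 fold change -5.88, SE 0.180, edgeR adjusted p = 1.38e-20). At E12.5 it had 2.46, 2.77, 2.25 and 2.83 CPM and 111, 112 and 135 CPM (log2 fold change -5.52, SE 0.171, edgeR adjusted p = 2.79e-20). Both keep the gap in every library. Of their windows, 73.5% (Rps2) and 72% (Rpl29) occur in other transcripts.

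Rpl35a, another gene of human Diamond-Blackfan anemia, had 1.37, 2.26, 1.38 and 1.89 CPM in FVBxBALB/c and 7.58, 24.0, 24.6, 23.3 and 16.1 CPM in C57BL/6 WT cortex at E15.5 (log2 fold change -3.44, SE 0.296, edgeR adjusted p = 1.14e-09). At E12.5 the log2 fold change was -3.13 (SE 0.291, edgeR adjusted p = 7.64e-09). Rpl3 had 16.3, 19.1, 18.6 and 14.9 CPM in FVBxBALB/c and 50.05, 74.9, 88.6, 81.9 and 85.9 CPM in C57BL/6 at E15.5 (log2 fold change -2.14, SE 0.143, edgeR adjusted p = 3.34e-12), and at E12.5 its log2 fold change was -1.86 (SE 0.149, edgeR adjusted p = 3.02e-10). Neither overlapped between backgrounds. Of the members called lower in FVBxBALB/c, 12 of 23 at E15.5 and 11 of 24 at E12.5 were more than 2-fold lower. The matching share of all genes is not given here. In the other direction at E15.5, Rpl15 averaged 166 ± 9.62 CPM in FVBxBALB/c and 129 ± 5.92 CPM in C57BL/6 (SD, n = 4 and 5; log2 fold change 0.37, SE 0.0776, edgeR adjusted p = 8.14e-04). Rpl23, which binds MDM2, averaged 154 ± 21.1 and 99.6 ± 23.9 CPM (log2 fold change 0.63, SE 0.176, edgeR adjusted p = 0.00947), Rps26 232 ± 35.9 and 157 ± 35.9 CPM (log2 fold change 0.56, SE 0.164, edgeR adjusted p = 0.0131), and Rps24 312 ± 24.2 and 218 ± 35.3 CPM (log2 fold change 0.52, SE 0.153, edgeR adjusted p = 0.0133). The Rps26 call was lost without FVBxBALB/c replicate 3 (edgeR adjusted p = 0.0595).

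Members of every class of shared windows were among those called between backgrounds. At E15.5, where 25.3% of all genes were called in either direction, 3 of 16 members with up to 25% shared windows were called, 12 of 24 with 25 to 50%, 8 of 27 with 50 to 75% and 7 of 17 with more. At E12.5, where 12.8% of all genes were called, the counts were 7 of 16, 7 of 24, 5 of 27 and 5 of 17. Differences of more than 2-fold, called or not and in either direction, were found in 1, 5, 6 and 2 of these members at E15.5 and in 2, 5, 4 and 2 at E12.5. The share of all genes past 2-fold is not given here.

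Some members split the FVBxBALB/c libraries within a single group. They were chosen after their values were seen, as those with a within-group SD of log2 CPM above 0.5, of which there were 6 of 84 in FVBxBALB/c and 1 in C57BL/6. The members' median SD was 0.275 in FVBxBALB/c and 0.194 in C57BL/6. Over all genes fitted, edgeR's coefficient of variation between replicates was also larger in FVBxBALB/c, 0.188 against 0.162. The share of all genes above an SD of 0.5 is not given here. Rps28 had the widest spread, 1.46 against 0.324, then Rpl26 (1.25 against 0.290), Rpl34 (1.18 against 0.243), Rpl21 (1.03 against 0.194), Rps18 (0.895 against 0.251) and the scarce Rpl39 (0.740 against 0.464). Rpl21 had 5.81, 34.6, 5.50 and 34.1 CPM in Tg(Kat6b) and 5.58, 6.41, 6.02 and 6.85 CPM in WT FVBxBALB/c cortex at E15.5, and 28.0, 42.8, 63.1 and 37.4 CPM in Tg(Kat6b) and 6.43, 7.87, 26.6 and 40.8 CPM in WT tissue at E12.5. No value fell between 7.87 and 26.6 CPM, and the 16 C57BL/6 libraries ran 32.2 to 52.8 CPM. Of the FVBxBALB/c WT libraries, both high ones were E12.5, and the Rpl21 call with age there (log2 fold change -1.74, SE 0.636, edgeR adjusted p = 0.0317) was lost in 6 of 8 cases when 1 library was left out.

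Rps28 had 16.9, 16.8, 14.7 and 2.32 CPM in Tg(Kat6b) and 4.21, 5.17, 33.8 and 27.1 CPM in WT FVBxBALB/c cortex at E15.5, and 21.9, 4.13, 2.66 and 17.3 CPM in Tg(Kat6b) and 22.9, 2.97, 11.02 and 19.6 CPM in WT tissue at E12.5. The C57BL/6 libraries ran 2.98 to 6.87 CPM, at the level of the low FVBxBALB/c libraries. Rps18 had 35.5, 31.9, 7.85 and 33.0 CPM in Tg(Kat6b) and 42.6, 35.9, 8.45 and 5.95 CPM in WT at E15.5, but 11.6, 12.9, 12.2 and 10.9 CPM and 11.8, 14.1, 11.5 and 11.2 CPM at E12.5, where no library was high. Its C57BL/6 libraries ran 47.6 to 88.1 CPM, above all of these. Rpl34 had 22.6, 21.3, 23.8 and 20.1 CPM in Tg(Kat6b) and 26.1, 5.30, 23.9 and 3.57 CPM in WT at E15.5, and 16.03, 5.46, 22.4 and 4.95 CPM and 4.16, 18.3, 15.8 and 50.8 CPM at E12.5, against 31.7 to 60.6 CPM in C57BL/6. The libraries that were low for one of these genes were not all low for the next. Windows shared with other transcripts made up 72.3% of Rps28, 63.6% of Rpl26, 44.8% of Rpl34, 52.4% of Rpl21 and 82.2% of Rps18. FVBxBALB/c embryos are of mixed ancestry, and the part that alleles, shared sequence or batch play in the split was not tested.

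**Figure D5:**
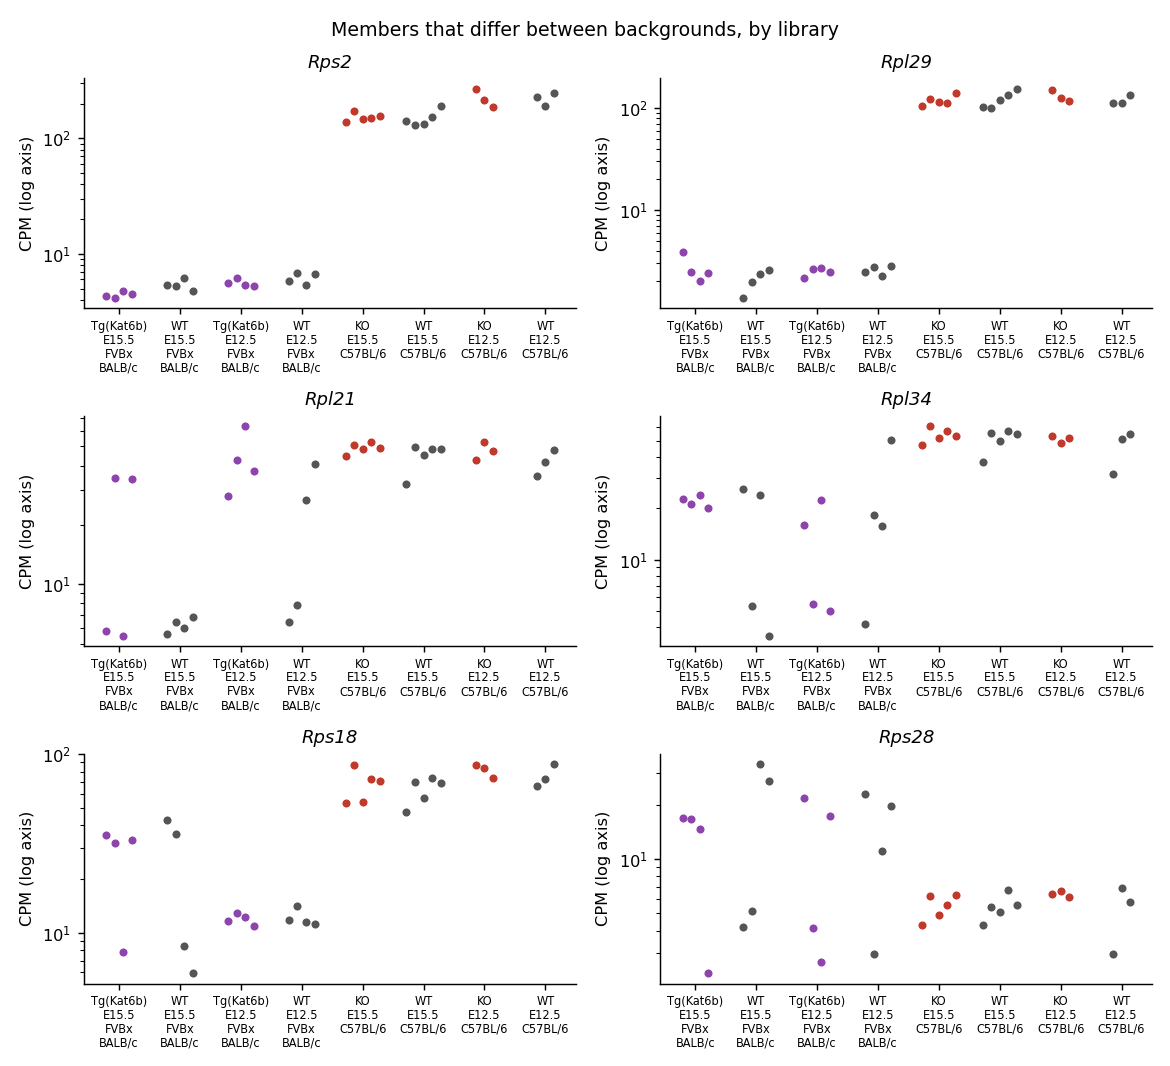
CPM in each library (log axis) for 6 members, FVBxBALB/c groups left of C57BL/6 groups. Rps2 and Rpl29 lie apart in every library, at 4.14 to 6.75 CPM against 131 to 268 CPM for Rps2, while Rpl21, Rpl34, Rps18 and Rps28 fall into high and low libraries within FVBxBALB/c groups.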

How the data were processed

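RNA of 32 dissected forebrain samples was sequenced as 66-base read pairs, per the labels' protocols. The authors deposited raw counts per gene; bcl2fastq, featureCounts and mm10 are named per the submitters' processing notes. The aligner, annotation, strand and multi-mapping settings were not given in the sources used here. Rows without a gene name (0.305 to 2.00% of counts) were left out.

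Counts were tested with edgeR 4.0.16 (R 4.3.3; TMM factors, filterByExpr with a minimum count of 10 and total of 15, quasi-likelihood test), with 1 fit per background and 1 of all libraries for comparisons between backgrounds. P-values were adjusted by Benjamini and Hochberg over all genes, at a threshold of 0.05. CPM and RPKM are this work's own values, on TMM-scaled library sizes of the 32 libraries. DESeq2 1.42.0, other scalings, no filter, replicate and litter blocks and left-out libraries were tried as alternatives. Members and gene lists were chosen with earlier results of these data known. Named members are paralogs, stalk and 5S-binding proteins, the extremes of level, and per comparison up to 4 called in each direction, or the 3 with the smallest p.

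Per the labels, C57BL/6 samples with the same number share a litter, so the numbers pair them; their deviations correlated between -0.43 and 0.42. Both C57BL/6 E15.5 replicate 5 tables carry a column name of E12.5 replicate 2, and the KO one is labelled dorsal telencephalon; results were also computed without both. No 2 replicates agreed within sampling noise (lowest chi-square per degree of freedom 6.31 over 50 pairs).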

Additional observations from a re-analysis of the deposited data

Results flagged for a closer look

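In 6 of 120 groups of 4 or 5 libraries examined, 1 library stood far from the others by Dixon's criterion, which chance does in about 1 group in 20. Rps27l had 18.7 CPM (18.65) in Tg(Kat6b) E15.5 replicate 4, with the nearest library at 24.4 CPM. Rps27 had 9.725 CPM and Rpl21 had 32.21 CPM in C57BL/6 WT E15.5 replicate 1, with the nearest at 13.02 and 45.07 CPM. Rpl22 had 322.2 CPM in FVBxBALB/c WT E12.5 replicate 4, with the nearest at 221 CPM. Rps18 had 7.851 CPM in Tg(Kat6b) E15.5 replicate 3, with the nearest at 31.9 CPM, and Rps28 had 2.32 CPM in Tg(Kat6b) E15.5 replicate 4, with the nearest at 14.7 CPM.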

How the results depend on the processing

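Counts of called members were the least stable results. With library totals in place of TMM factors, 24 members were lower with age in KO-labelled tissue, 9 were lower in FVBxBALB/c WT, 0 were higher in C57BL/6 WT, and 4 were higher in FVBxBALB/c than in C57BL/6 at E15.5. Without a count filter 2 were lower with age in FVBxBALB/c WT. In 1 fit of all libraries 7 were lower and 3 higher there, and 2 were higher in Tg(Kat6b), where DESeq2 called 1 higher. Among members with at most 25% shared windows, a limit chosen after seeing the data, 2 were lower and 0 higher with age in each C57BL/6 genotype, 1 was lower in Tg(Kat6b), and 0 were lower and 0 higher in FVBxBALB/c WT. Between backgrounds, 7 were then lower at E12.5, and 2 lower and 1 higher at E15.5. The cause was not tested.

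Leaving out 1 library at a time gave 7 to 12 members lower with age in KO-labelled tissue, 5 to 8 lower and 1 to 4 higher in C57BL/6 WT, 5 to 21 lower and 0 to 2 higher in Tg(Kat6b), and 1 to 5 lower and 1 to 12 higher in FVBxBALB/c WT. It gave 13 to 39 lower between backgrounds at E12.5, and 19 to 26 lower and 3 to 8 higher at E15.5. The genotype counts were 0 in every case. Uncalled partners changed sign: with library totals Rpl22 in KO-labelled tissue was -0.0941 and Rpl7 in C57BL/6 WT -0.0423, and Rpl7 was also -0.0422 without both C57BL/6 E15.5 replicates 5. With 1 library left out, the log2 ranges in KO-labelled tissue were -0.0067 to 0.11 (Rpl22) and -0.116 to 0.0260 (Rps27). In Tg(Kat6b) they were -0.0311 to 0.206 (Rpl22) and -0.20 to 0.0064 (Rpl7). In C57BL/6 WT they were -0.0428 to 0.08835 (Rpl7) and -0.298 to 0.0862 (Rps27), and in FVBxBALB/c WT -0.19 to 0.10 (Rps27) and -0.330 to 0.0731 (Rps27l).

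With a replicate block, 0 members were called in any genotype comparison, as without it; 5 and 1 (KO at E12.5 and E15.5) and 16 and 0 (Tg(Kat6b)) had an unadjusted p below 0.05. With litter as the block in C57BL/6, where E12.5 replicates 3 and 4 share a litter, 0 were called and 8 and 1 (KO at E12.5 and E15.5) had one, against 2 and 0 without a block. FVBxBALB/c numbers correlated between -0.19 and 0.64 and carry no litter. Of 481 values of named members under settings other than left-out libraries, 471 kept direction and side of the threshold. Scarce members (Rpl39, Rpl10l, Rpl3l, Rpl39l) are limited by depth.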
